A study of Mus musculus with 6 samples.

Results

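Calmodulin, the calmodulin-like proteins and calcineurin form a calcium-reading module, and 9 of its genes were examined here in the testis of mice with an active form of the transcriptional repressor DREAM. The genes were selected by annotation: Calm2 and Calm3 (calmodulin), Calml3 and Calml4 (calmodulin-like), Ppp3ca, Ppp3cb and Ppp3cc (the catalytic or A subunits of calcineurin) and Ppp3r1 and Ppp3r2 (its regulatory or B subunits). Every probe set that carries 1 of these genes alone was used, 15 in all. They belong to 7 of the 9 genes, out of 18193 genes measured in this way. Calm2 and Calm3 have no probe set under their own name in the annotation used and were not analysed here, and 1 further probe set that carries a member together with another gene was set aside. The group was put together with earlier results of this same comparison known, Calml4 among them, so the p-values below describe the fit over the whole array and lend no independent support to the choice of genes.

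Testes of 3 adult mice carrying a transgene for a constitutively active mutant of DREAM and of 3 adult wild-type mice were compared, all of a hybrid background of C57BL/6 and CBA. DREAM (gene Kcnip3) is a neuronal calcium sensor that also binds DNA and represses transcription when it is free of calcium. The promoter that drives the transgene, the number of founder lines and the ages in weeks are not given in the sources used here. Each testis RNA was hybridised to 1 Affymetrix whole-genome mouse array, and all values below are log2 intensities, so a difference of 1 is a 2-fold change.

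Calmodulin is a small protein with EF-hand calcium-binding sites that wraps around its target enzymes once it has bound calcium. Calcineurin is the main phosphatase under its control: the catalytic subunit is held inactive until calcium acts on the regulatory subunit and on calmodulin, and the active enzyme dephosphorylates, among others, the NFAT transcription factors. The subunits Ppp3cc and Ppp3r2 make up the calcineurin of sperm, which in mice is needed for the flexible midpiece and for male fertility, whereas Ppp3ca, Ppp3cb and Ppp3r1 are found in many tissues.

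The promoters of 5 of the 9 genes are held in the RefSeq table of assembly GRCm38.p6. Those of Calml4, the only one whose probe set passed the test below, and of the regulatory pair Ppp3r1 and Ppp3r2 are shown because DREAM binds sites built around the letters GTCA. Each run is the 250 bases before the listed start, 5′ to 3′ on the gene's strand, with GTCA or its reverse complement TGAC in capitals. Calml4 lies at chr9:62857854-62858103 (plus strand), Ppp3r1 at chr11:17159048-17159297 (plus strand) and Ppp3r2 at chr4:49681984-49682233 (minus strand).
Calml4: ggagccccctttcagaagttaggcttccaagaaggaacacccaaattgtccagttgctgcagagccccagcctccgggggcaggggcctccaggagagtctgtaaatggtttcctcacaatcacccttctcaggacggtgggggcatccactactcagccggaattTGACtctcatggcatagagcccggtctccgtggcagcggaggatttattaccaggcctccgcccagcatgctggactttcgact
Ppp3r1: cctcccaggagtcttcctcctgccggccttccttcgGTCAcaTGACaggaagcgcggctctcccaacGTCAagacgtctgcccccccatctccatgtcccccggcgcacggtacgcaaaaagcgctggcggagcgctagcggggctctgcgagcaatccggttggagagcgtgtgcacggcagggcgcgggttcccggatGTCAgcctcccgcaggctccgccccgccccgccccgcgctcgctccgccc
Ppp3r2: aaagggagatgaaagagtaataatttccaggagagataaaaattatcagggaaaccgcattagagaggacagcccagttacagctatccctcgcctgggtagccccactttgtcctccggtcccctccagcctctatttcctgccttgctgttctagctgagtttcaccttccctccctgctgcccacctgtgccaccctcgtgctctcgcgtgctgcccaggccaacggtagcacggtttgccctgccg
The 4 letters, searched on both strands, occur 1 time before Calml4, 4 times before Ppp3r1, 2 times before Calm3 and 0 times before Ppp3r2 and Ppp3cb. Windows of the same length hold them in 80.2% of 32851 promoters in the table. The full cyclic AMP response element TGACGTCA, which contains them, is in 0 of the 5 windows and in 1.55% of all. Within the 50 bases after the start, on the gene's own strand, GTCA occurs 1 time in Ppp3r1 and 0 times in the other 4, against 14.4% of all promoters. A match here is a match of letters.

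The arrays carried the signal of testis. Averaged over 7 spermatid markers (protamines and transition proteins among them), the level was 13.00 to 13.07 in transgenic and 13.06 to 13.10 in wild-type arrays. The 6 spermatocyte markers averaged 10.02 to 10.07 in transgenic and 10.22 to 10.27 in wild-type arrays. The 4 endothelial markers averaged 5.19 to 5.25 in transgenic and 4.86 to 4.99 in wild-type arrays, and the 4 macrophage markers 6.30 to 6.33 in transgenic and 5.98 to 6.26 in wild-type arrays. Over the 9 cell type lists, 0 of the 46 measured markers passed the test across the array (limma), against 0.444% of all probe sets. An unadjusted p under 0.05 was found for 8 of the 46, a larger share than the 6.69% of all probe sets. Of these, Tek, Pecam1, Emcn, Csf1r and Cd163 were higher in transgenic testis, and Sycp1, Spo11 and Myh11 were lower. Tek, Emcn and Cd163 were dim, at percentiles 19.8, 21.5 and 19.9 of all probe sets, and are not shown to lie above background. Wild type replicate 2 stood apart on the first principal component, at -42.2 against -5.3 to 23.3 for the other 5 arrays. RNA integrity, read as the 3′ minus the 5′ control probe set of Gapdh, gave 0.21, 0.26 and 0.33 in transgenic and 0.16, 0.06 and 0.11 in wild-type arrays (exact permutation test, two-sided p = 0.1, the smallest that 3 against 3 can give). The same measure from beta-actin was 0.53, 0.47 and 0.49 in transgenic and 0.50, 0.41 and 0.50 in wild-type arrays, with overlapping groups (exact permutation test, two-sided p = 0.7), so the 2 controls do not both separate the genotypes.

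One of the 15 probe sets passed the test, that of Calml4, and it was lower in transgenic testis; the 13 probe sets of calcineurin and that of Calml3 did not. Across the array, 0.444% of 45037 probe sets passed (limma, Benjamini-Hochberg adjusted p under 0.05), and 0.273% passed as lower. At an unadjusted p under 0.05 there were 3 of the 15, against 6.69% of the array. The 3 transgenic values lay outside the range of the 3 wild-type values in 4 of the 15 (26.7%), against 11.3% of the array. In each of those 4 the transgenic arrays were the lower ones, as in 4.95% of the array. Calml4, known when the genes were chosen, is among the 3 and among the 4. Of the 4, 2 are probe sets of the same gene, Ppp3ca. These shares are therefore not independent of the choice of genes. Over the 15 probe sets the median difference, transgenic minus wild type, was -0.08, and over the 14 without Calml4 it was -0.07, beside 0.02 over all probe sets. The 14 that did not pass had differences of 0.01 to 0.29 in size. None of their 95% intervals reached past a 1.41-fold change of intensity in either direction. Of the 15, 6 had a mean level under the median of all probe sets. No detection call comes with these values, so for dim probe sets the intervals do not bound the change of the transcripts.

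**Figure D1:**
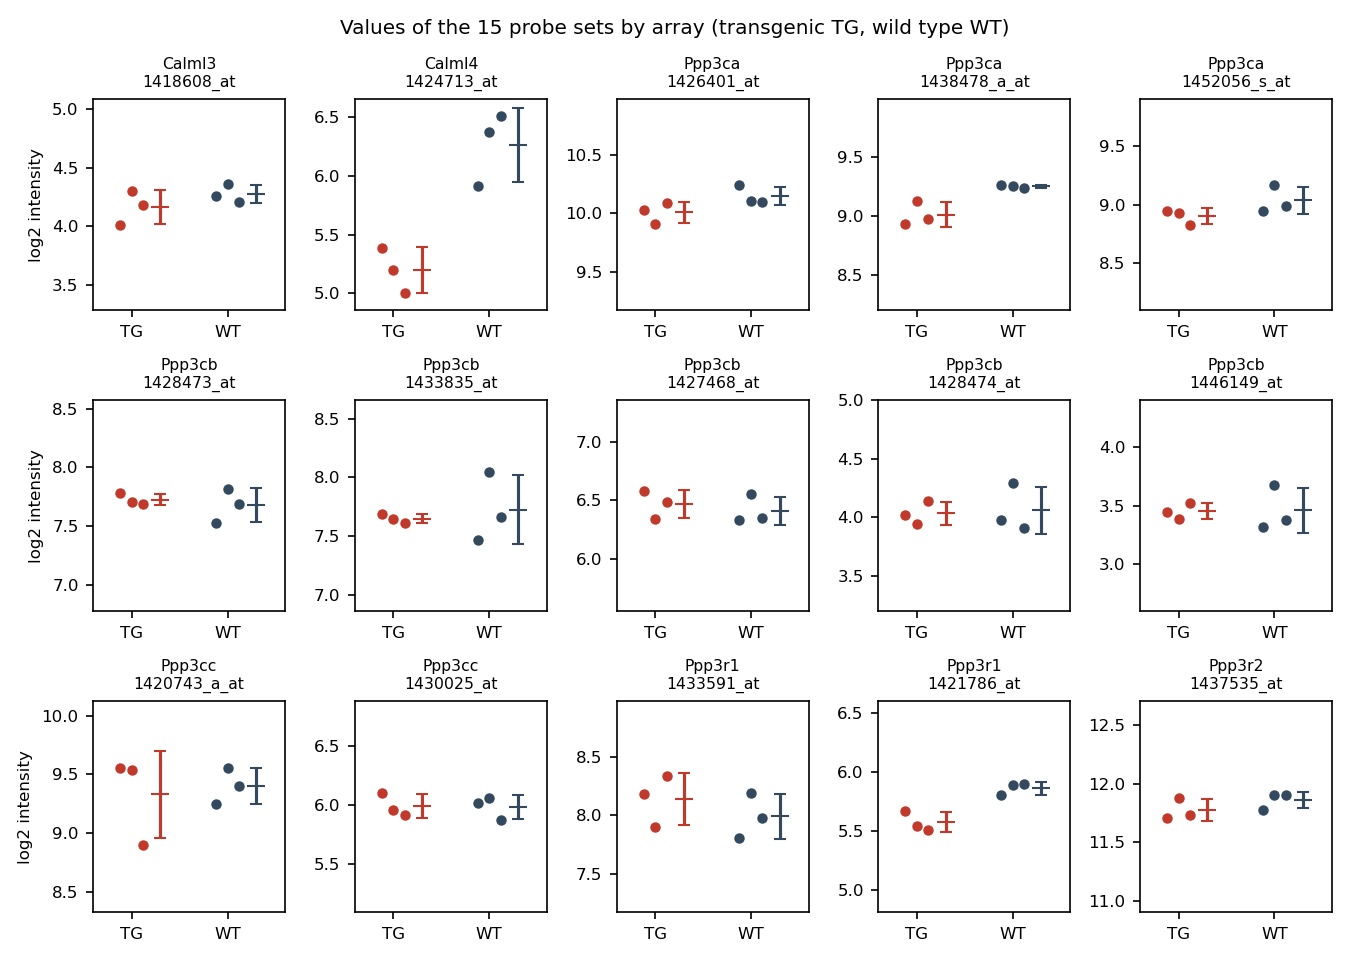
Log2 intensity (vertical axis, 1.8 units tall in every panel) of the 15 probe sets in the 3 transgenic (TG, red) and 3 wild-type (WT, dark) arrays, with mean and SD beside the points. Calml4 is the panel with a wide gap, at 5.0 to 5.39 in TG and 5.91 to 6.51 in WT; in most others the groups overlap.

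Calml4 encodes a calmodulin-like protein that, in the brush border of intestine and kidney, serves as a light chain of the motor protein Myo7b. Its probe set (1424713_at, gene on chromosome 9) read 5.39, 5.20 and 5.0 in transgenic testis, against 5.91, 6.37 and 6.51 in wild-type testis. The highest transgenic value lay below the lowest wild-type value. The means were 5.20 ± 0.20 in transgenic and 6.26 ± 0.31 in wild-type testis (SD, n = 3 each). Calml4 therefore fell by 1.07 on the log2 scale in transgenic testis (SE 0.16, 95% interval -1.43 to -0.70, limma adjusted p = 0.0282), an intensity 2.09-fold lower. By p-value it was number 154 of the 200 probe sets that passed. In whole testis, fewer cells that express the gene and less of its RNA per cell cannot be told apart. No detection call comes with these values, so the transgenic reading of 5.20 is not shown to lie above background and the ratio of the transcripts themselves is not known.

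The Calml4 difference kept its sign in all 14 alternatives in which the probe set was present, and its call did not hold in 6 of them. Without transgenic replicates 1, 2 or 3 the adjusted p was 0.0906, 0.199 and 0.172, and leaving out wild type replicate 3 gave 0.13, with differences of -1.16, -1.07, -0.97 and -0.94. Without wild type replicate 2, the array that stood apart, the difference was -1.01 (adjusted p = 0.0264). The transgenic array with the largest Gapdh 3′ minus 5′ difference also had the lowest Calml4 value, and with that measure as a covariate the Calml4 difference was -0.47 (95% interval -1.01 to 0.07, adjusted p = 0.514). The genotypes do not overlap in the Gapdh measure, while they do in that of beta-actin, which was not used as a covariate. The parts of the spermatocyte, endothelial and macrophage marker shifts given above were not tested.

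**Figure D2:**
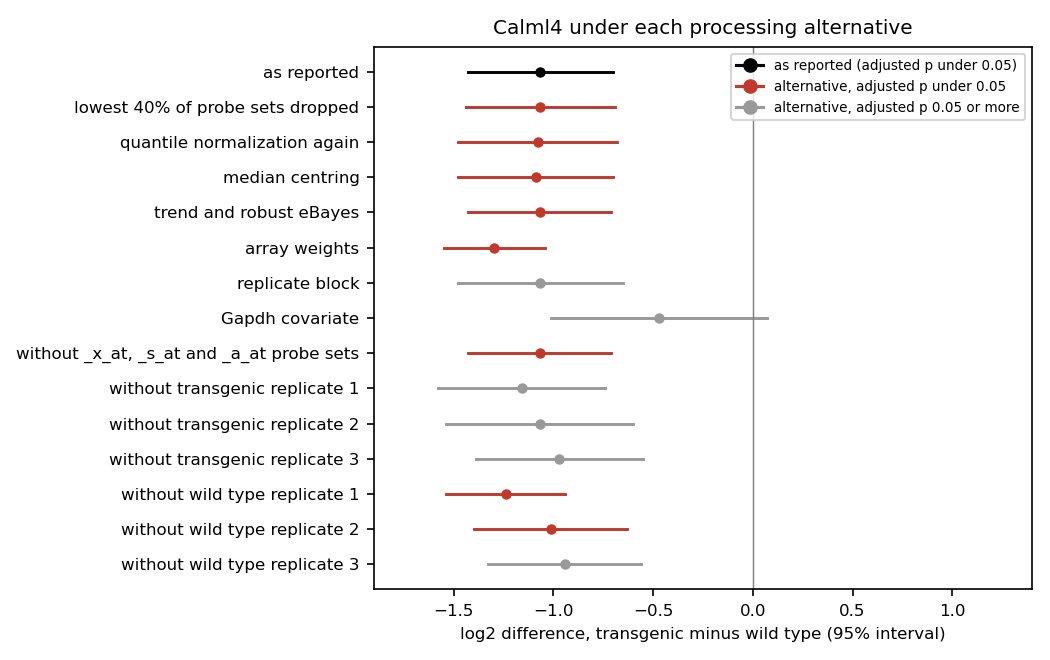
Log2 difference of Calml4, transgenic minus wild type (horizontal axis), with its 95% interval, as reported (black) and under each alternative (red where the adjusted p is under 0.05, grey otherwise). All points lie left of 0, between -1.30 with array weights and -0.47 with the Gapdh covariate, whose interval alone includes 0.

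Genes on either side of Calml4 were read next, a choice made after its value was seen. The 10 nearest measured protein-coding genes were each read with the brightest probe set. None of them passed (limma), 0 had an unadjusted p under 0.05 and 0 had groups that did not overlap. Over the array these shares were 0.444%, 6.69% and 11.3%. The differences of the 10 genes ran from -0.10 to 0.16. Cln6, the next measured coding gene on one side and a gene of an inherited lysosomal storage disease, read 9.20, 8.89 and 8.90 in transgenic against 8.71, 9.07 and 8.90 in wild-type testis. Pias1, the next on the other side and a SUMO ligase gene, read 10.72, 10.80 and 10.72 in transgenic against 10.80, 10.74 and 10.73 in wild-type testis. Other probe sets of these genes were not read, and the cause of the lower Calml4 reading was not tested.

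The 5 genes that encode partners of Calml4 in the brush-border adhesion complex were also chosen after the values were seen. With the brightest probe set of each, the differences ran from -0.08 to 0.40. Of the 5, 0 passed (limma), 1 had an unadjusted p under 0.05 and 1 had groups that did not overlap. The shares over the array were 0.444%, 6.69% and 11.3%. Other probe sets of the 5 were not read. Cdhr5, a protocadherin gene of microvilli, was the 1 in both counts. It read 6.49, 6.71 and 6.65 in transgenic against 6.38, 6.16 and 6.11 in wild-type testis (limma adjusted p = 0.293). Its transgenic values were the higher ones, the opposite order to Calml4. Myo7b, the motor that Calml4 binds, read 6.62, 6.86 and 6.82 in transgenic against 6.69, 6.38 and 6.63 in wild-type testis (difference 0.20, adjusted p = 0.843).

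**Figure D3:**
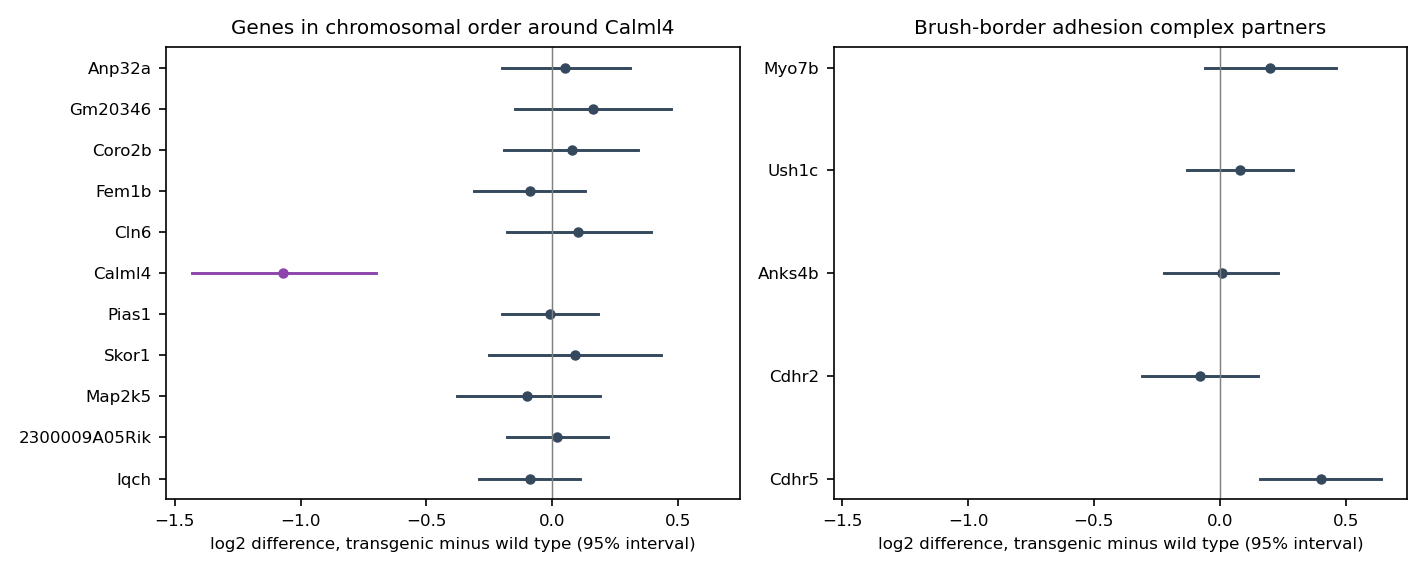
Log2 difference, transgenic minus wild type, with 95% intervals: on the left Calml4 (purple) and the 5 nearest measured coding genes on each side in chromosomal order, on the right 5 genes of the brush-border adhesion complex. Calml4 is at -1.07, its neighbours lie between -0.10 and 0.16, and Cdhr5, at 0.40, is the partner farthest from 0.

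Calml3, a calmodulin-like gene of epithelia whose human protein binds an unconventional myosin, read 4.01, 4.30 and 4.18 in transgenic against 4.26, 4.36 and 4.21 in wild-type testis. The groups overlapped, with a difference of -0.11 (95% interval -0.34 to 0.12, adjusted p = 0.941). Its level was at percentile 14 of all probe sets and is not shown to lie above background.

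The sperm calcineurin subunits showed no difference that passed. Ppp3r2, the regulatory subunit of testis and sperm on chromosome 4, read 11.71, 11.88 and 11.73 in transgenic against 11.78, 11.90 and 11.90 in wild-type testis. All 6 arrays lay within 0.19 of each other and the groups overlapped, and the difference was -0.09 (SE 0.09, adjusted p = 0.959). Its 95% interval, -0.30 to 0.12, spans 0.815-fold to 1.09-fold.

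Ppp3cc, the catalytic subunit of the same enzyme on chromosome 14, read 9.55, 9.54 and 8.90 in transgenic against 9.25, 9.55 and 9.40 in wild-type testis with its brighter probe set. Transgenic replicate 3 was the low array, and the other two transgenic arrays lay at the top of the wild-type range. The difference was -0.07 (SE 0.17, 95% interval -0.46 to 0.32, adjusted p = 0.984). With the Gapdh covariate it was 0.65 (95% interval 0.16 to 1.14, adjusted p = 0.382), the largest move of any calcineurin probe set under that alternative. The dimmer probe set of Ppp3cc read 6.10, 5.96 and 5.91 in transgenic against 6.02, 6.06 and 5.87 in wild-type testis, a difference of 0.01 (adjusted p = 0.995).

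Over the 6 arrays, the genes whose values ran most like the brighter Ppp3cc probe set were Tssk6 (Pearson r = 0.992), Gle1 (0.992) and Atf4 (0.988). For Ppp3r2 they were Toporsl (0.994), Ciao2b (0.990) and Ccdc57 (0.987), and for Calml4, added after its value was seen, Mtrex (0.995), Ccdc88c (0.993) and Cbx8 (0.992). These are the highest correlations over 6 points among 11819 genes and are given as a description only.

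The 3 probe sets of Ppp3ca, the catalytic alpha subunit on chromosome 3, were all lower in transgenic testis, and none passed. The probe set 1438478_a_at read 8.93, 9.13 and 8.97 in transgenic against 9.26, 9.25 and 9.24 in wild-type testis, with no overlap. Its difference was -0.24 (SE 0.09, 95% interval -0.44 to -0.04, unadjusted p = 0.0263, limma adjusted p = 0.631). The brightest, 1426401_at, read 10.03, 9.91 and 10.09 in transgenic against 10.24, 10.11 and 10.10 in wild-type testis, a gap of 0.01 between the groups. Its difference was -0.14 (95% interval -0.35 to 0.07, adjusted p = 0.897). The third, 1452056_s_at, gave -0.13 with overlapping groups (adjusted p = 0.915). With the Gapdh covariate its sign turned, to 0.10 (95% interval -0.28 to 0.48). Under that alternative 1438478_a_at was -0.26 (-0.67 to 0.15) and 1426401_at was -0.28 (-0.68 to 0.12).

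Ppp3cb, the catalytic beta subunit on chromosome 14, had 5 probe sets with differences of -0.08 to 0.06, and the groups overlapped in all 5 (adjusted p from 0.978 to 0.995). Its brightest read 7.78, 7.71 and 7.69 in transgenic against 7.53, 7.82 and 7.69 in wild-type testis. In 4 of the 5, wild type replicate 2 gave the highest value of the 6 arrays. The dimmest, 1428474_at and 1446149_at, had levels at percentiles 10.9 and 2 of all probe sets. Those levels are not shown to lie above background.

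Ppp3r1, the widely expressed regulatory subunit on chromosome 11, gave opposite signs with its 2 probe sets. The brighter one (1433591_at) read 8.18, 7.90 and 8.34 in transgenic against 7.81, 8.19 and 7.98 in wild-type testis, a difference of 0.15 (95% interval -0.17 to 0.46, adjusted p = 0.946). The dimmer one (1421786_at) read 5.67, 5.54 and 5.51 in transgenic against 5.80, 5.89 and 5.90 in wild-type testis. Here the groups did not overlap, and the difference was -0.29 (SE 0.09, 95% interval -0.49 to -0.09, unadjusted p = 0.0102, limma adjusted p = 0.43). The brighter minus the dimmer probe set was 2.51, 2.36 and 2.83 within the transgenic arrays and 2.01, 2.30 and 2.08 within the wild-type arrays. That contrast, chosen after the values were seen, differed by 0.44 (exact permutation test, two-sided p = 0.1, the smallest possible). The level of the dimmer probe set, at percentile 43.2 of all probe sets, is not shown to lie above background. With the Gapdh covariate the difference of the dimmer probe set was -0.11 (95% interval -0.49 to 0.26). The probe sets of Ppp3r1 and Ppp3ca that did not overlap between the groups had intervals that reached at most a 1.41-fold change of intensity.

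**Figure D4:**
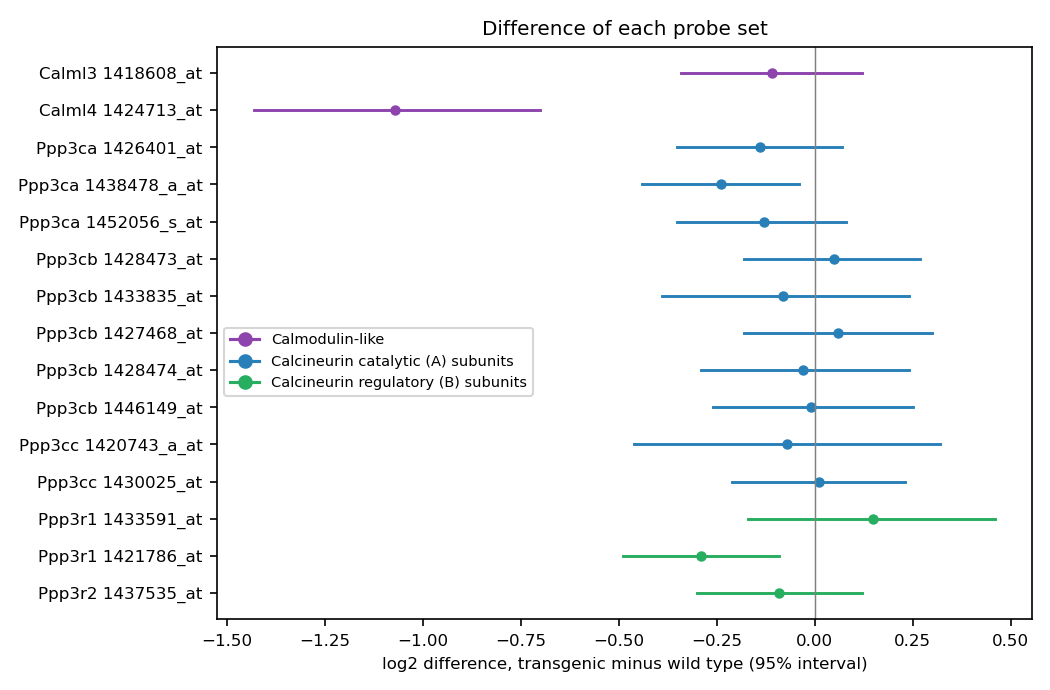
Log2 difference, transgenic minus wild type (horizontal axis), with 95% intervals for the 15 probe sets, in order of role and coloured by it. Calml4 stands at -1.07; the others lie between -0.29 and 0.15, with 1438478_a_at of Ppp3ca and 1421786_at of Ppp3r1 the only ones among them whose intervals leave out 0.

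The genes around the module were read from 5 lists, with the brightest probe set of each gene. Of 69 genes 66 were measured, 0 passed (limma), and 3 had an unadjusted p under 0.05. Over all probe sets 0.444% passed and 6.69% had an unadjusted p under 0.05. The median difference over the 66 was -0.01, beside 0.02 over all 18193 genes. Of 12 calcineurin regulators and anchors, 5 were below 0 and the median was 0.05. Rcan2, an inhibitor of calcineurin, read 5.01, 5.04 and 5.15 in transgenic against 4.89, 4.51 and 5.11 in wild-type testis (0.23, adjusted p = 0.875). Myoz1, a calcineurin-binding protein of muscle, read 0.17 as a difference (adjusted p = 0.899), and 0.26 with the mean over its probe sets. Spata33 tethers sperm calcineurin to mitochondria in mice and was named for that role, outside the rule of smallest p and after its values were seen. It read 12.46, 12.55 and 12.57 in transgenic against 12.55, 12.55 and 12.58 in wild-type testis.

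Among 12 genes that calcineurin acts on or through, the NFAT and MEF2 transcription factors, the CRTC coactivators and Tfeb, 6 were below 0 and the median was -0.01. Mef2b read 6.94, 6.84 and 6.92 in transgenic against 7.17, 7.17 and 7.29 in wild-type testis, without overlap (-0.31, unadjusted p = 0.00621, limma adjusted p = 0.343). Tfeb, a regulator of lysosomal genes, gave -0.18 (adjusted p = 0.814). Among 9 centrins and other EF-hand relatives of calmodulin, 7 were below 0, with a median of -0.09, the lowest of the 5 lists. Cetn2, a centriole protein gene, gave -0.22 (adjusted p = 0.813) and Efcab2 -0.12 (adjusted p = 0.903). With means over all probe sets of a gene, Cetn2 was -0.11, Efcab2 was 0 and the list median was -0.07.

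The 18 calmodulin-binding scaffold and storage genes had 9 below 0 and a median of -0.01. Camta1, a calmodulin-binding transcription activator, gave -0.17 (adjusted p = 0.866) and Strn, a striatin scaffold, 0.15 (adjusted p = 0.875). Means over all their probe sets were -0.03 for Camta1 and 0.11 for Strn. Of the 15 calmodulin-dependent enzymes other than the kinases named for calmodulin, 8 were below 0, with a median of -0.01. The 2 of smallest p stood apart from the other 13 of this list. Nos3, the endothelial nitric oxide synthase, read 6.73, 6.68 and 6.44 in transgenic against 6.98, 7.25 and 7.14 in wild-type testis (-0.51, adjusted p = 0.15). The endothelial markers, with gene means of 4.53 to 5.82, had a median difference of 0.27, with 4 of 4 above 0 and 0 passing. Whether endothelial cells have a part in the Nos3 reading was not tested. Itpka, a kinase that phosphorylates the second messenger IP3, read 6.78, 6.90 and 6.73 in transgenic against 7.23, 7.32 and 7.24 in wild-type testis (-0.46, 95% interval -0.66 to -0.26, adjusted p = 0.0864). In both genes all transgenic values were below all wild-type values. In a table of 1 mean per gene, where fewer features are tested, the adjusted p of Itpka was 0.0319 with the same difference.

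**Figure D5:**
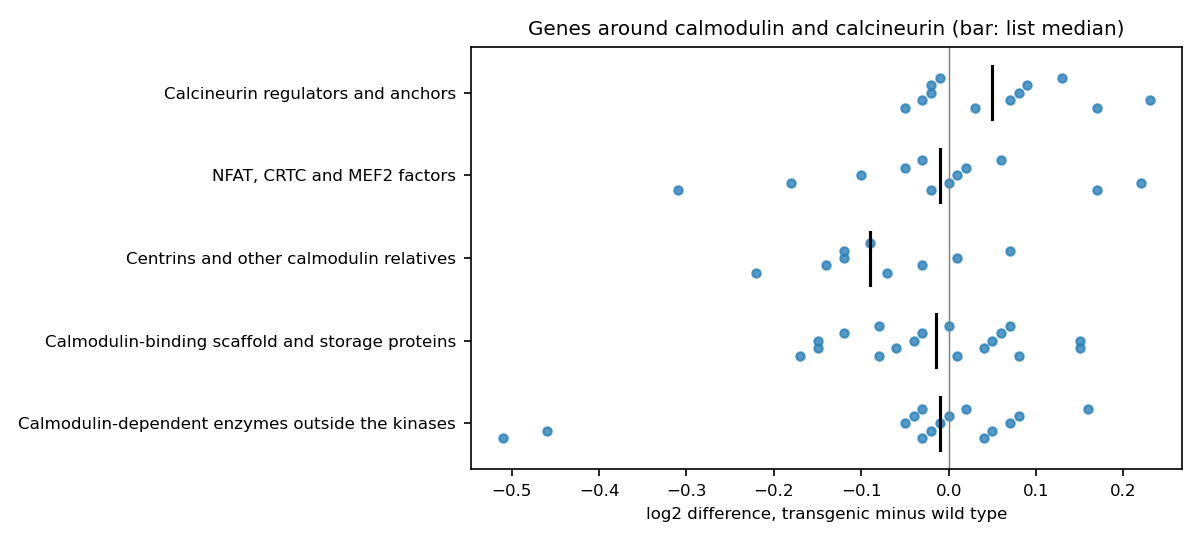
Log2 difference, transgenic minus wild type (horizontal axis), of the 66 measured genes in 5 lists around calmodulin and calcineurin; each point is a gene and each bar a list's median. Nos3 and Itpka, at -0.51 and -0.46 in the bottom row, and Mef2b, at -0.31 in the second row, lie farthest from 0.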

How the data were processed

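Per the labels' protocols, RNA from freshly dissected testis was prepared with TRIzol and a column kit, and 4 µg of it was labelled with biotin. The authors deposited log2 values, 1 for each probe set and array; per the submitters' processing notes, RMA and the affy package made them, with no version given. RMA brings the arrays to a near-common distribution (array medians 5.99 to 6.08), so a shift of all transcripts together cannot be seen, and depth does not apply to arrays: their number, 3 per group, limits the precision. The submitters describe the replicates as independent.

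From these values, 64 control probe sets were left out and 45037 tested with limma 3.58.1 in R 4.3.3 (lmFit, eBayes, two-sided, Benjamini-Hochberg over all of them). Genes come from the platform annotation, with symbols updated through RefSeq (GRCm38.p6): 1 gene is given for 34945 probe sets, more than 1 for 932 and none here for 9160. No older symbol added a member. The members, lists and tests were chosen with earlier results of these data known. Named genes were all members and, in each list, those past the threshold or else the 2 of smallest p; Spata33, the neighbours of Calml4 and its brush-border partners are exceptions, named after values were seen. The gene most like a member was sought among named genes brighter than the median probe set. The alternatives tried were filters, normalization, variance models, array weights, a replicate block, the Gapdh covariate, probe set classes, gene means and leaving out each array. The test was checked on simulated data.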

Additional observations from a re-analysis of the deposited data

How the results depend on the processing

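The count of probe sets passing over the array, 200, was 306 with trend and robust eBayes, 117 with the replicate number as a block, 18 with the Gapdh covariate and 4160 with array weights, where the weighting stopped before it converged and gave wild type replicate 3 a weight of 19.1 against 0.237 to 0.812 for the others. Leaving out each array gave 70 (without wild type replicate 3) to 429 (without wild type replicate 2), with 71, 75 and 73 without transgenic replicates 1, 2 and 3. The member count of 1 was 3 with array weights and 0 with the lowest 60% of probe sets dropped, which removes Calml4 itself, with the replicate block and with the Gapdh covariate; leaving out each array gave 0 or 1. Calml4 was -1.07 with the replicate block (adjusted p = 0.0929) and -0.47 with the Gapdh covariate (0.514), and -1.24 to -0.94 without each array. Same-numbered arrays did not deviate together (correlations -0.32, -0.07 and -0.01), so the numbers are not taken to pair the samples.

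The other 14 probe sets have 198 values under alternatives: 186 moved by less than the replicate SD, 10 by more, and 2 passed, both with array weights (1438478_a_at of Ppp3ca at -0.23 and 1421786_at of Ppp3r1 at -0.32). The 10 larger moves came with the Gapdh covariate, except that the dimmer Ppp3cc probe set also moved with array weights. The sign turned in 19 of the 198. With gene means, Ppp3r1 was -0.07 in place of 0.15, and 1 of the calmodulin-dependent enzymes passed, in place of 0. The cause of these changes was not tested, apart from those built into an alternative.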
